A study of Mus musculus with 8 samples.

Results

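The regions described here are stretches of the mouse genome where Rad21 was detected as a peak in 1 ChIP-seq library and in none of the other 7. Peaks of the 8 deposited lists that overlapped by at least 1 bp were merged, and a merged region was chosen by the presence of a peak in exactly 1 list. On chromosomes 1 to 19, leaving out chromosome 12 from 114.5 Mb on, where Igh lies, 33130 of 62901 merged regions (52.7%) met this rule. Another 6691 regions (10.6%) were held by all 8 lists and serve as the landmark to which distances were measured. Because presence in the lists picked the regions, their summit values are given as a description and were not tested. Each region in the set held a single peak, so a value of the peak is a value of the region.

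Rad21 is the kleisin subunit that closes the cohesin ring. Cohesin extrudes chromatin into loops and comes to rest mostly at sites bound by CTCF, which appear in Rad21 ChIP-seq as tall, narrow peaks that recur between cell types. It is also loaded and found at lower levels over active promoters and enhancers, where peaks are weaker and depend more on the cell's transcriptional state and on the depth of a library.

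CH12F3, a mouse B lymphoma line used to study IgA switching, was stimulated for 3 days with TGF-β, IL4 and anti-CD40 before the libraries were made. AID, the enzyme whose deamination of switch DNA begins class switching, was absent from every line (AID-/-), and the names of all 4 genotypes begin with Iγ3. FS_Ca (Iγ3-FS-Cα-AID-/-) carried a deletion from Cγ3 to Iα with both the Sγ3 and the Sα switch region at full length, made in cells without the VH to 3'BCEs segment of their non-coding IgH allele. FS_Ia (Iγ3-FS-Iα-AID-/-) carried a deletion from Cγ3 to Cα, again with full-length switch regions, made in αInv cells. PS_Ca (Iγ3-PS-Cα-AID-/-) and PS_Ia (Iγ3-PS-Iα-AID-/-) were made in the same 2 kinds of cell with a deletion between Sγ3 and Sα that left only a part of each. There were 2 libraries per genotype. Whether they came from separate cultures, and whether a line is 1 clone, is not stated in the labels, so a p-value over libraries measures only the spread between these samples. No expression was measured, so the cell type was not checked against markers.

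The lists differed in length and in implied background. On the chromosomes used here they held 10361 (PS_Ca replicate 2) to 46858 peaks (PS_Ia replicate 2). Read totals per library were not used here. The background that the fold values of a list imply, which moves with depth, lay between 0.223 fragments per position (FS_Ia replicate 2) and 0.862 fragments (PS_Ia replicate 2). A region missing from a list was below that list's threshold and is not shown to be free of Rad21.

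Single-library regions came mostly from the long lists. PS_Ia replicate 2, the longest, gave 17023 of them (51.4%). FS_Ca replicate 2 gave 4964, FS_Ia replicate 2 gave 4330 and PS_Ca replicate 1 gave 4281. These 4 libraries together held 92.4% of all single-library regions. PS_Ia replicate 1 followed with 1504 and FS_Ca replicate 1 with 619, and the shortest lists gave fewest, with 237 in PS_Ca replicate 2 and 172 in FS_Ia replicate 1. As a share of a list, peaks found nowhere else made up 36.3% in PS_Ia replicate 2, 14.2% to 16.9% in the next 3 libraries, 7.49% in PS_Ia replicate 1 and 1.27% to 3.73% in the remaining 3. Replicates of a genotype were therefore far apart: PS_Ia replicate 2 had more than PS_Ia replicate 1 by 15519 regions, and FS_Ca and FS_Ia replicate 2 exceeded their replicate 1 by 4345 and 4158 regions. In PS_Ca the order was the other way round, with replicate 1 ahead (4281 against 237 regions).

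**Figure D1:**
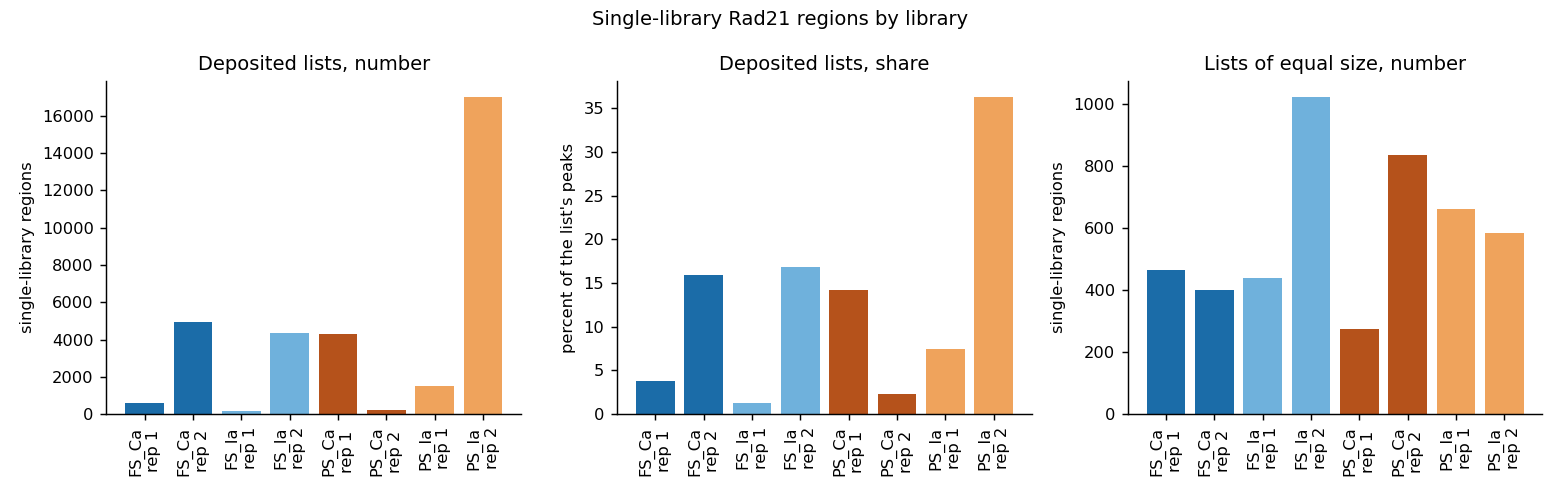
Bars give, for each of the 8 libraries, the number of single-library regions in the deposited lists (left), the percent of the peaks of the list that they make up (middle), and the number when each list is cut to its strongest 10361 peaks (right). PS_Ia replicate 2 leads with 17023 regions on the left, whereas FS_Ia replicate 2 leads with 1024 on the right.

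Cutting the lists to equal size rearranged this order. With each list cut to its strongest 10361 peaks, 4689 regions were held by 1 list, and 4270 by all 8. FS_Ia replicate 2 then had the most, 1024 regions, followed by PS_Ca replicate 2 with 837, PS_Ia replicate 1 with 663 and PS_Ia replicate 2 with 584. FS_Ca replicates 1 and 2 had 466 and 401 regions, FS_Ia replicate 1 had 439 and PS_Ca replicate 1 had 275. Few of these were single-library regions in the full lists: 550 of the 4689 (11.7%) were, and 237 of those 550 belonged to PS_Ca replicate 2, whose list was not shortened. In PS_Ia replicate 2, 39 of the 17023 single-library peaks (0.229%) were among its strongest 10361. The peaks that made up the set in the long lists thus lay low in those lists.

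Summits of single-library regions were only a few fragments high. The deposited fold values rise in equal steps per fragment, from which each summit's height was recovered as a whole number. The median height was 4 fragments in FS_Ia replicate 2, 6 in FS_Ca replicate 1 and FS_Ia replicate 1, and 7 in the other 5 libraries. The lowest summit that any peak had was 3 fragments in FS_Ia replicate 2, 4 in FS_Ca replicate 1 and FS_Ia replicate 1, and 5 elsewhere. Between 58.2% (PS_Ca replicate 2) and 85.1% (FS_Ia replicate 2) of single-library summits lay within 2 fragments of that lowest height. Over all libraries 27112 summits (81.8%) were 6 to 10 fragments high, 5348 (16.1%) were 3 to 5, 666 (2.01%) were 11 to 15, and 4 were 16 or more. No single-library summit exceeded 18 fragments. In the regions of all 8 lists the median summit was 10 to 19 fragments, depending on the library, so the 2 sets met only in the lower part of the range.

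**Figure D2:**
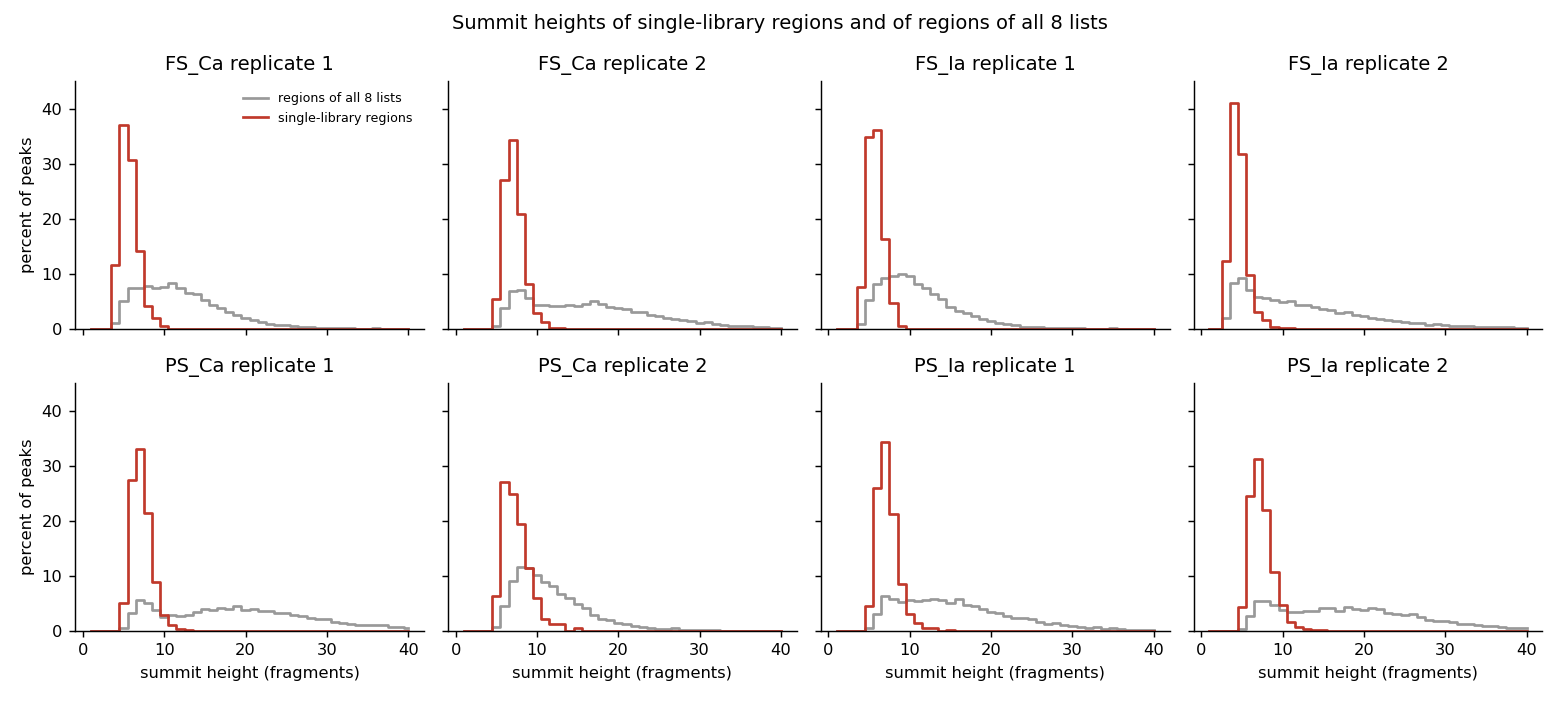
For each library the lines give the percent of peaks at each summit height in fragments, for single-library regions and for regions held by all 8 lists; summits over 40 fragments are not drawn. Single-library summits peak at the low end, at 41.1% with 4 fragments in FS_Ia replicate 2, whereas the shared regions spread to far greater heights.

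In the authors' units, the median fold over background of single-library peaks ran from 4.09 in FS_Ia replicate 2 to 5.42 in FS_Ia replicate 1. For peaks in regions of all 8 lists the median fold ran from 7.56 in PS_Ca replicate 2 to 11.3 in PS_Ca replicate 1. The median −log10 q of single-library peaks lay between 2.75 (FS_Ia replicate 2) and 4.57 (FS_Ia replicate 1). A −log10 q of at least 5 was reached by 7.39% of single-library peaks in PS_Ia replicate 2 and by 22.4% in PS_Ca replicate 2, against 39.0% and 64.3% of all peaks in those lists. On the other side of the rule's limit, the 7697 regions found in exactly 2 lists were only slightly stronger. Their peaks had a median fold of 4.83, a median −log10 q of 4.03 and a median height of 7 fragments, beside 4.51, 3.39 and 7 fragments for single-library peaks. The step to 3 to 7 lists was larger, with a median fold of 5.91 and 9 fragments. PS_Ia replicate 2 was 1 of the 2 holders in 5475 (71.1%) of the 2-list regions, most often together with FS_Ca replicate 2 (2174 regions), PS_Ca replicate 1 (1413) or FS_Ia replicate 2 (1331). The 4 pairs of libraries of the same genotype accounted for 528 (6.86%) of them, out of 28 possible pairs.

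Single-library peaks were also narrow. Their median width was 215 bp in FS_Ca replicate 1, 224 bp in PS_Ca replicate 2, 235 bp in FS_Ia replicate 2 and 259 bp in FS_Ia replicate 1. It was 286 bp in PS_Ca replicate 1, 300 bp in FS_Ca replicate 2, 307 bp in PS_Ia replicate 1 and 321 bp in PS_Ia replicate 2. Each list has a smallest width that many of its peaks share, between 190.0 and 274 bp. From 29.1% (PS_Ia replicate 2) to 58.7% (FS_Ia replicate 1) of single-library peaks had exactly that width, against 2.80% to 8.94% of the peaks in regions of all 8 lists. Wide ones were rare in every library. PS_Ia replicate 2 had 136 peaks over 1 kb among its 17023 single-library peaks. The other 7 libraries had at most 7 each (7 of 4964 in FS_Ca replicate 2 and 6 of 4281 in PS_Ca replicate 1).

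The strongest single-library regions of each library, 3 per library by −log10 q with ties broken by width, are given by mm9 position. In FS_Ca replicate 2 they were at chromosome 3, 19976503 to 19976934 (fold 10.98, 18 fragments), chromosome 9, 118577863 to 118578497 (fold 9.82, 16 fragments), and chromosome 16, 38399297 to 38399957 (fold 8.09, 13 fragments). The first of these was 171 kb from the nearest region of all 8 lists and 73.0 kb from any region of 2 or more. In FS_Ia replicate 2 they were at chromosome 8, 119890373 to 119890874 (fold 11.4, 13 fragments), chromosome 5, 104875220 to 104875672 (fold 10.6, 12 fragments), and chromosome 9, 61016686 to 61017348 (fold 9.81, 11 fragments). The chromosome 8 region lay 148 bp, or 0.148 kb, from a region that other lists held, whereas for the chromosome 5 region the nearest was 106 kb away. At 18 fragments the 95% Poisson interval is 10.7 to 28.4, and at 13 fragments 6.92 to 22.2. These intervals cover counting error only, and fragments copied in the PCR are not independent molecules.

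PS_Ia replicate 2 had its leading 3 all on chromosome 12. They were at 100632411 to 100633586 (fold 10.2, 18 fragments), 74416165 to 74416664 (fold 9.67, 17 fragments) and 56489823 to 56491134 (fold 8.59, 15 fragments). The first and the third lay 0.182 and 0.123 kb from a region found in 2 or more lists, so they were next to, not overlapping, signal seen elsewhere. PS_Ia replicate 1 was led by chromosome 2, 110898550 to 110899066 (fold 9.86, 15 fragments), which stood 493 kb from any region of 2 or more lists and 828 kb from the nearest of all 8. It was followed by chromosome 14, 54947822 to 54949021, and chromosome 8, 67966290 to 67967023 (fold 8.63 and 13 fragments each).

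In PS_Ca replicate 1 the leading regions were at chromosome 4, 88390173 to 88390583, and chromosome 19, 38498497 to 38498844 (fold 8.46, 14 fragments each), and chromosome 2, 91123886 to 91124755 (fold 7.90, 13 fragments). The last was 0.224 kb from a region of all 8 lists. PS_Ca replicate 2 was led by chromosome 8, 19917323 to 19918080 (fold 10.1, 15 fragments), only 0.131 kb from a region of all 8 lists. Next came chromosome 5, 14920201 to 14920555, and chromosome 7, 67026450 to 67026697 (fold 8.82, 13 fragments each), which lay 0.852 and 1.11 kb from regions of 2 or more lists. FS_Ca replicate 1 had chromosome 15, 10802098 to 10802477, chromosome 6, 42810178 to 42810530, and chromosome 1, 69831937 to 69832236, all with fold 7.89 and 10 fragments. FS_Ia replicate 1 had chromosome 1, 6125285 to 6125741 (fold 7.74, 9 fragments), chromosome 6, 91116806 to 91117174, and chromosome 14, 62754948 to 62755305 (fold 6.96 and 8 fragments each). Over the 8 libraries the leading −log10 q ranged from 8.64 in FS_Ia replicate 1 to 16.6 in FS_Ia replicate 2.

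Very few single-library regions were as strong as a typical shared region. In all, 20 of 33130 reached the median fold that peaks in regions of all 8 lists had in the same list. PS_Ca replicate 2, where that median was lowest at 7.56, had 12 of them, FS_Ia replicate 2 had 4, FS_Ca replicate 2 had 2, and PS_Ia replicates 1 and 2 had 1 each. FS_Ca replicate 1, FS_Ia replicate 1 and PS_Ca replicate 1 had 0. Of the 12 in PS_Ca replicate 2, 5 lay on chromosome 5 between 14920201 and 15205489. These were picked out after their values were seen.

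Single-library regions lay near the shared ones. The median distance from edge to edge to the nearest region of all 8 lists was 31.3 kb, with quartiles of 4.05 and 92.6 kb. Uniform placement of the same number of regions per chromosome, worked out exactly from the gaps between the shared regions with no random draw, has a median of 209 kb. It treats every position between the first and last peak of a chromosome as available, including sequence to which reads cannot be mapped. Within 2 kb of a shared region were 6499 single-library regions (19.6%, uniform placement 1.155%), within 10 kb 10911 (32.9%, uniform 5.44%) and within 50 kb 19930 (60.2%, uniform 21.9%). Among the 16107 of these regions that came from the other 7 libraries, the median was 41.3 kb (uniform 211 kb) and 29.1% were within 10 kb. With PS_Ia replicate 2 left out and the regions defined anew from 7 lists, the median was 33.96 kb and 32.4% were within 10 kb.

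The regions of 2 lists were placed much the same way, with a median of 35.4 kb and 30.3% within 10 kb. Regions of 3 to 7 lists were farther off, at a median of 57.3 kb with 17.6% within 10 kb and 7.44% within 2 kb. All 3 classes were closer to the shared regions than uniform placement puts them, and the pooled single-library class the closest by the median. Single-library regions of the libraries other than PS_Ia replicate 2 had a median of 41.3 kb, above that of the 2-list class. That class, however, still counted PS_Ia replicate 2, a holder of 71.1% of its regions. With that list left out and the regions defined anew, the single-library median was 33.96 kb. The 2-list class was not redefined in the same way, so how far the rank depends on this library was not tested. Pooled over the libraries, summit height differed little with this distance. Single-library regions within 2 kb of a shared region and those between 50 and 500 kb away had the same median height of 7 fragments, and 10.7% and 10.97% of them reached a −log10 q of 5. By library the latter share rose in some and fell in others. Between these distances it went from 11.2% to 16.8% in FS_Ia replicate 2 and from 8.73% to 7.31% in PS_Ia replicate 2. Beyond 500 kb there were 1095 regions (3.31%), of which 18.6% came from PS_Ia replicate 2 and 15.9% reached a −log10 q of 5.

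**Figure D3:**
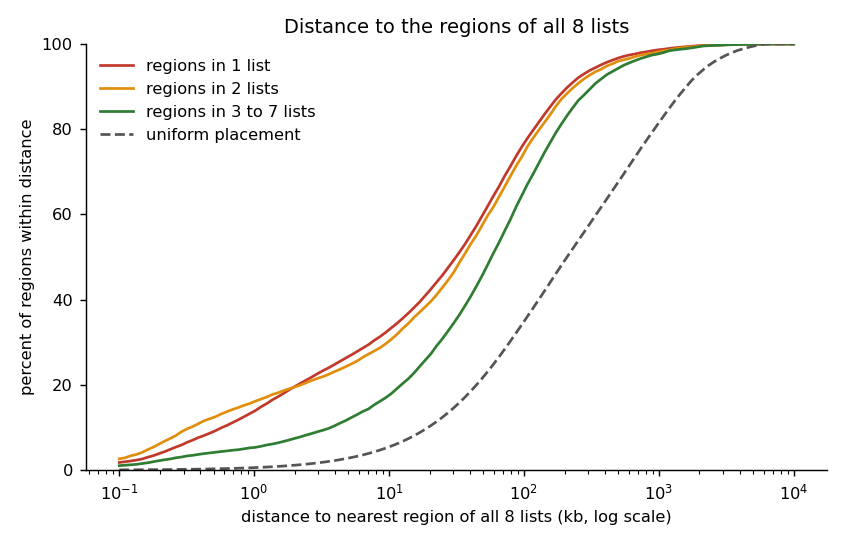
Curves give the percent of regions (vertical axis) whose nearest region of all 8 lists is within the distance on the horizontal axis in kb, on a log scale, for regions in 1 list, in 2 lists and in 3 to 7 lists; the dashed line is uniform placement. At 10 kb the curves stand at 32.9%, 30.3% and 17.6%, and uniform placement at 5.44%.

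Libraries differed in how close their regions came. The median distance was shortest in PS_Ia replicate 2 (24.1 kb) and FS_Ca replicate 2 (27.1 kb), followed by PS_Ca replicate 1 (32.8 kb) and PS_Ia replicate 1 (49.2 kb). FS_Ia replicate 2 stood at 55.6 kb and PS_Ca replicate 2 at 63.5 kb, with 80.3 kb in FS_Ia replicate 1 and 107 kb in FS_Ca replicate 1, while uniform placement gave 207 to 229 kb. Every library was thus below its uniform value, by 2.09 times in FS_Ca replicate 1 up to 8.57 times in PS_Ia replicate 2. PS_Ca replicate 1 stood out at short range, with 29.1% of its single-library regions within 2 kb of a shared region. FS_Ia replicate 2 gave about as many regions in all but had 7.02% within 2 kb. In equal-size lists, where shared regions are fewer, the median distances were 57.7 to 194 kb and uniform placement gave 349 to 393 kb.

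Many single-library regions were neighbours of signal seen in other libraries. The nearest region of 2 or more lists was a median of 2.25 kb away, where uniform placement gives 57.4 kb. It was within 500 bp, without overlapping, for 8398 regions (25.3%, uniform 1.153%). The share was highest in PS_Ca replicate 1 (33.8%) and FS_Ca replicate 2 (30.3%) and lowest in FS_Ia replicate 2 (11.96%). For these regions, counting as single-library rests on a gap of at most 500 bp between peaks.

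They also sat beside each other. Of all single-library regions, 12970 (39.1%) had another of the same library within 10 kb. Of the 16107 that came from libraries other than PS_Ia replicate 2, 2753 (17.1%) did, and with that list left out and the regions defined anew 26.4% did. By library the share was 60.02% in PS_Ia replicate 2 (uniform placement 15.1%), 24.0% in FS_Ca replicate 2 (uniform 4.46%), 17.8% in PS_Ca replicate 1 (uniform 3.86%) and 12.2% in FS_Ia replicate 2 (uniform 3.74%). PS_Ia replicate 1 had 8.98% (uniform 1.34%), FS_Ca replicate 1 had 3.72% (uniform 0.544%) and FS_Ia replicate 1 had 1.16%, or 2 regions (uniform 0.140%). PS_Ca replicate 2 broke the order. Although it had only 237 single-library regions, 115 of them (48.5%) had another within 10 kb, where uniform placement gives 0.367%.

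**Figure D4:**
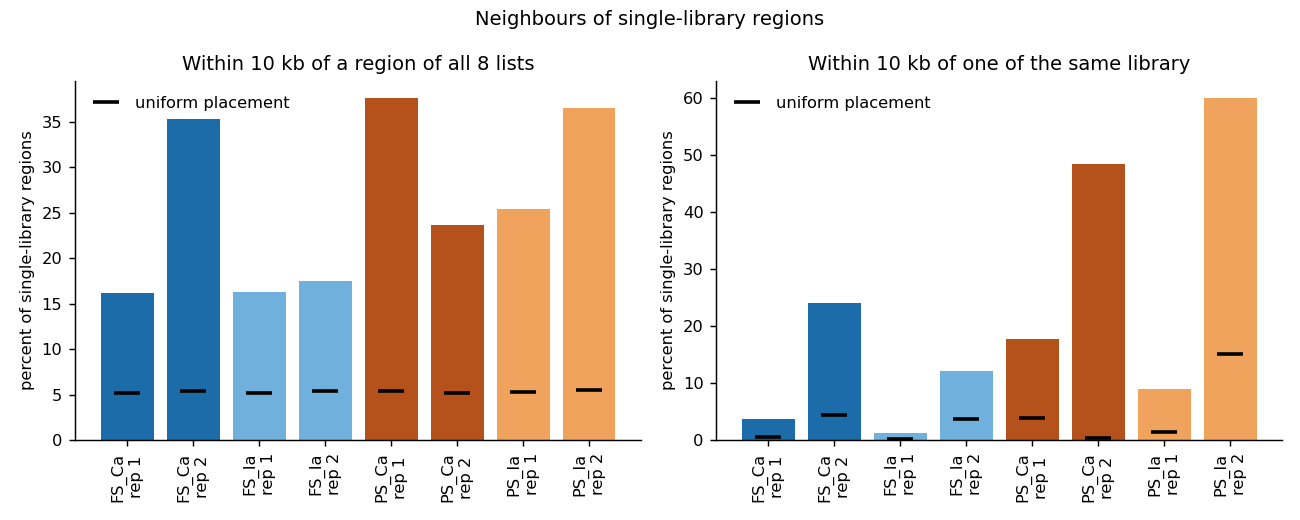
Bars give the percent of single-library regions within 10 kb of a region of all 8 lists (left) and within 10 kb of another single-library region of the same library (right), per library; black marks are uniform placement. All bars stand above their marks, and PS_Ca replicate 2 reaches 48.5% on the right with a mark at 0.367%.

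The densest windows of 1 Mb were gathered by the long lists. They were chromosome 15, 102000001 to 103000000, with 132 single-library regions, and chromosome 14, 70000001 to 71000000, with 128. Then came chromosome 16, 91000001 to 92000000, with 113, chromosome 14, 32000001 to 33000000, with 110, and chromosome 16, 10000001 to 11000000, with 104. PS_Ia replicate 2 gave 98, 88, 71, 71 and 81 of these, and FS_Ca replicate 2 came next in the first 4 windows with 20, 16, 27 and 16. Each of the 5 windows also held 8 to 16 regions of all 8 lists. Over the 2419 windows the median was 7 single-library regions, and 371 windows had none. Windows without a shared region (791) held a mean of 1.58 single-library regions and windows with 5 or more (587) a mean of 34.9. Spearman's rho between the 2 counts was 0.866 over the 2419 windows, which share libraries, mappability and base composition. By library rho was 0.844 in PS_Ia replicate 2. It was 0.136 in FS_Ca replicate 1, 0.143 in FS_Ia replicate 1 and 0.02 in PS_Ca replicate 2, where 79.5%, 93.2% and 95.3% of windows were empty.

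In PS_Ca replicate 2 the neighbours gathered in a handful of windows, which were looked up after the clustering was seen. Its 5 densest windows held 86 of the 237 regions (36.3%), against 1.82% to 5.81% in the 5 densest windows of each of the other 7 libraries. They were chromosome 4, 146000001 to 147000000 (23 regions), chromosome 5, 15000001 to 16000000 (22) and 14000001 to 15000000 (10), chromosome 8, 19000001 to 20000000 (20), and chromosome 14, 44000001 to 45000000 (11). Inside them 88.4% had a neighbour of the same library within 10 kb. Outside them 25.8% of the remaining 151 did, where uniform placement gives 0.155%. The other 7 libraries had peaks in each of these windows too, from 3 to 73 per window. PS_Ca replicate 2, the shortest list, nevertheless had the most peaks of any library in 4 of the 5. It had 100 peaks in the chromosome 5 window from 15000001, against 24 to 66 in the others, and 98 peaks in the chromosome 8 window, against 31 to 73. In the chromosome 4 window it had 44 peaks, against 3 (FS_Ca replicate 2) to 24 (FS_Ca replicate 1). FS_Ca replicate 1 also had its own densest windows there, with 9 single-library regions in the window from 146000001 and 8 in the window from 145000001.

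Across chromosomes, single-library regions pooled over the libraries mostly followed the shared ones. Chromosome 11 held 9.02% of them, 25.1 regions per Mb, beside 9.16% of the regions of all 8 lists and 4.94% of the length. This did not hold in every library. The share on chromosome 11 was 3.55% in FS_Ca replicate 1, 3.49% in FS_Ia replicate 1 and 3.38% in PS_Ca replicate 2. In the other libraries it was 6.86% (FS_Ia replicate 2) to 10.2% (PS_Ia replicate 2). Chromosome 3 was at the low end with 7.88 regions per Mb. Chromosomes 12, 15 and 16 were among those that departed from the shares of the shared regions, chromosome 16 in all 8 libraries. Chromosome 14 also lay above its share in all 8 libraries, at 5.67% to 10.97% against 5.57% of the regions of all 8 lists. Pooled over the libraries, chromosome 16 held 5.98% of the single-library regions, beside 3.87% of the regions of all 8 lists. PS_Ia replicate 2 had 8.09% of its single-library regions (1378) on chromosome 12, against 0.422% to 4.85% in the other 7 libraries. Its whole list leaned the same way, with 5.64% of all its peaks there, against 3.63% to 3.93% in the other 7 lists. In that library the summits of all-8 regions on chromosome 12 were also higher, with a median 1.28 times that on the other chromosomes, against 0.875 to 1.00 times in the rest. In equal-size lists 11.8% of its single-library regions (69) were on chromosome 12.

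Chromosome 16 separated the PS_Ca libraries from the others. PS_Ca replicates 1 and 2 had 1.12% (48 regions) and 0.844% of their single-library regions there, and the other 6 libraries had 5.33% to 8.08%. Of all peaks, the PS_Ca lists had 3.19% and 3.06% there and the other 6 lists 4.77% to 5.75%. The regions of all 8 lists gave chromosome 16 3.87%. Their summits moved the same way, at 0.842 and 0.909 times the other chromosomes in PS_Ca and 1.09 to 1.27 times in the other 6. With lists of equal size, PS_Ca still had the smallest shares, 1.09% (3 regions) and 1.08% (9 regions). On chromosome 15, PS_Ia replicate 1 had 2.46% and PS_Ca replicate 1 had 7.33%, with the other 6 libraries between, and the summits of all-8 regions there were 0.867 times those elsewhere in PS_Ia replicate 1 and 1.00 times in PS_Ca replicate 1. Of all peaks, PS_Ia replicate 1 had 3.87% on chromosome 15 and PS_Ca replicate 1 had 5.34%, with 4.74% to 5.36% in the other 6 lists. The part that the higher or lower summits on a chromosome have in these shares was not tested. PS_Ca replicate 2 showed its windows here as well, with 18.99% of its regions on chromosome 5, 16.9% on chromosome 4, 14.8% on chromosome 8 and 10.97% on chromosome 14. Of all its peaks, 6.87%, 6.66%, 5.84% and 5.62% were on these chromosomes, in the same order.

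**Figure D5:**
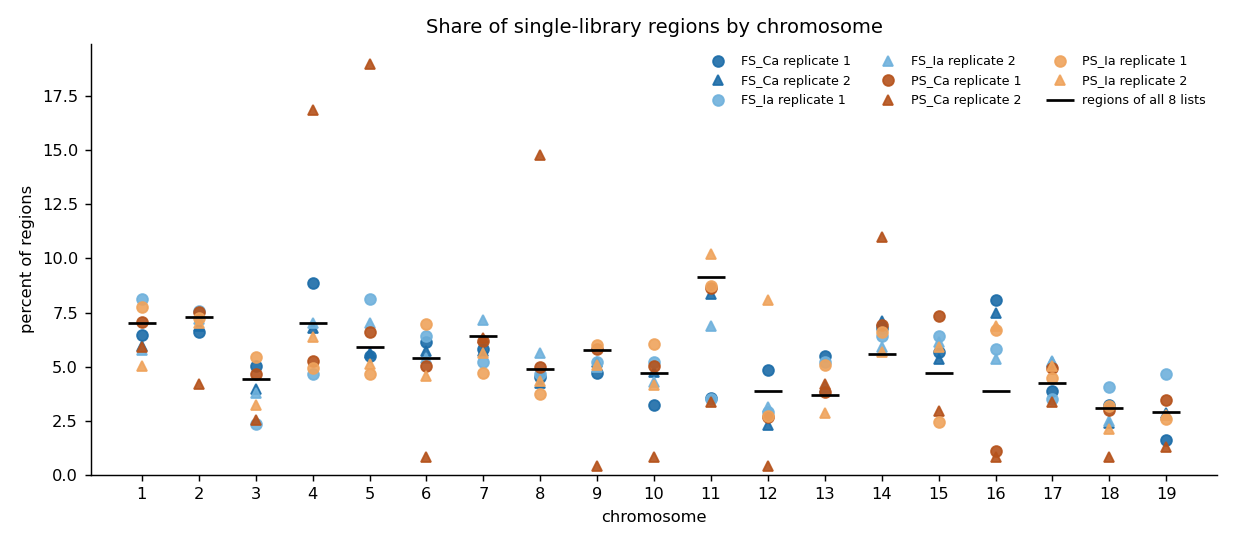
Points give the percent of the single-library regions of each library on chromosomes 1 to 19; black marks give the percent of regions of all 8 lists. PS_Ia replicate 2 stands high on chromosome 12 (8.09%), both PS_Ca libraries stand low on chromosome 16 (1.12% and 0.844%), and PS_Ca replicate 2 stands high on chromosomes 4, 5, 8 and 14.

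The study is about chromatin configuration and the orientation in which switch breaks are joined, and its design crosses orientation (Ia against Ca) with switch length (PS against FS). The Ca lines were made in cells without the VH to 3'BCEs segment of the non-coding IgH allele, and the Ia lines in αInv cells. Orientation and parent cell therefore cannot be told apart. For the single-library regions, 5 values per library were compared for each factor, 4 libraries against 4, by exact two-sided permutation tests over 70 assignments. The smallest p this allows is 0.0286, and p-values were adjusted over the 10 tests by Benjamini-Hochberg. Since a region counts only if the other lists lack it, the 8 numbers are not fully independent. None of the 10 tests passed, with adjusted p of 0.75 to 0.8 and 0 below an unadjusted 0.05. An adjusted p of 0.05 could be reached only if most of the 10 tests had the smallest p. The adjusted values therefore cannot decide whether a single measure differs with orientation or switch length.

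Ia libraries held 5757 ± 7708 single-library regions and Ca libraries 2525 ± 2443 (SD, n = 4), a difference of 3232 (exact permutation p = 0.6). The values overlapped widely. The prefixes of the peak names put the libraries into 3 sets, the 4 FS libraries and the PS libraries by replicate, and the sign differed between them. In the FS set Ia minus Ca was -540.5 regions, in the replicate 1 pair of PS it was -2777, and in the replicate 2 pair 16786. Without PS_Ia replicate 2 the difference was -1131. As a share of the list it was 15.5% ± 15.3 in Ia and 9.04% ± 7.03 in Ca (SD, n = 4; exact permutation p = 0.514), with -0.766, -6.72 and 34.0 percentage points within the 3 sets. The median distance to a shared region was 52.3 ± 23.1 kb in Ia and 57.7 ± 36.7 kb in Ca (SD, n = 4; exact permutation p = 0.8), with differences of 0.802, 16.4 and -39.4 kb within the sets. Median width was 280.5 ± 40.3 bp and 256 ± 43.0 bp (exact permutation p = 0.457; -10.5, 21.0 and 97.0 bp within the sets). The clustered share was 20.6% ± 26.7 and 23.5% ± 18.7 (exact permutation p = 0.8; -7.19, -8.78 and 11.5 percentage points within the sets).

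For switch length, PS libraries held 5761 ± 7695 single-library regions and FS libraries 2521 ± 2475 (SD, n = 4; exact permutation p = 0.571). Without PS_Ia replicate 2 the difference of 3240 became -843. The share of the list was 15.1% ± 14.98 in PS and 9.46% ± 8.10 in FS (exact permutation p = 0.6). PS regions were a median of 42.4 ± 17.5 kb from a shared region and FS regions 67.6 ± 34.2 kb (exact permutation p = 0.257). The clustered share showed the lowest p of the 10, at 33.8% ± 24.3 in PS and 10.3% ± 10.3 in FS (exact permutation p = 0.171), and the 2 groups overlapped. Under uniform placement this share grows with the number of regions, from 0.140% in FS_Ia replicate 1 to 15.1% in PS_Ia replicate 2. It was compared without allowing for that, here and for orientation. Median width was 284.5 ± 42.8 bp in PS and 252 ± 36.6 bp in FS (exact permutation p = 0.314). Since none of the name prefixes spanned FS and PS, what the prefix stands for and the length of the switch regions cannot be told apart.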

How the data were processed

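One deposited peak list per library was analysed, for 4 genotypes with 2 Rad21 ChIP-seq libraries each. Sonicated, formaldehyde-fixed chromatin was immunoprecipitated and then tagmented on the beads by Tn5, per the labels' protocols. The submitters' processing notes name MACS2 2.2.7.1, Bowtie2 2.4.4, deepTools 3.5.1 and SAMtools 1.15.1, with mm9 as the build. Threshold, read filters and control: not given in the sources used here. Read depth is unknown, which limits precision.

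Each deposited list gives per peak the authors' score (not used), the fold of the summit over background (a ratio), the −log10 p and −log10 q, and the summit position. These values are the authors', and were used only within a list. Summit height was the fold divided by the list's step per fragment, minus 1, which was whole within 0.000924 for every peak.

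Regions were merged with an overlap of 1 bp. Distances are gaps between edges, and neighbours were counted within 10 kb. Equal-size lists were the strongest 10361 peaks by −log10 p, with ties broken by width and then a fixed random order. Named regions were the 3 with the highest −log10 q per library and the 5 densest windows. The regions and the measures were chosen with earlier results of these data known. No genome or annotation of the mm9 build was used, so regions have no gene or sequence. The calculations used scipy 1.17.1, pandas 2.3.3 and numpy 2.4.6 under Python 3.11.15, with plots by matplotlib 3.10.9, and were tested on simulated data. Alternatives were a −log10 q of at least 5, equal-size lists, summits with 100 bp on each side, a merging gap of 500 bp, each library left out, limits of 2 and 50 kb, distances from summits, a replicate block and, added after seeing the data, chromosomes 12, 15 and 16 left out.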

Additional observations from a re-analysis of the deposited data

Results flagged for a closer look

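Among the 4 Ia libraries, PS_Ia replicate 2 had 8.09% of its single-library regions on chromosome 12, far from the other 3, at 2.73% to 3.12%. PS_Ia replicate 1 had 2.46% on chromosome 15, where the other 3 Ia libraries had 5.90% to 6.395%. In the single-library shares, the gap between the extreme library and the next was 0.927 of the range on chromosome 12 and 0.874 on chromosome 15. The limit for flagging was 0.829, which independent, normally distributed values reach by chance in about 1 in 20 groups of 4. In all, 8 measures were looked at in 4 groups each, the 3 chromosomes among them chosen after their values were seen.

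The share on chromosome 16 went opposite ways with orientation, every library agreeing. Ia minus Ca was -2.20 percentage points with full-length and 5.81 with partial switch regions, a difference of 8.01 points that was not tested. Of all peaks, the PS_Ca lists had 3.19% and 3.06% on chromosome 16 and the other 6 lists 4.77% to 5.75%. Orientation and the parent cell of the lines cannot be told apart here.

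Outside the chromosomes used here, 909 more regions were held by 1 library, of which 783 were on X and 126 on the end of chromosome 12. PS_Ca replicate 2 gave 306 of those on X, more than its 237 regions described above, with 85 in the window of X from 31000001 to 32000000, 77 from 3000001 to 4000000 and 67 from 4000001 to 5000000. The other 7 libraries gave 17 to 124 on X.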

How the results depend on the processing

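The number of single-library regions depended on how a region or a list was defined. It was 9238 with a −log10 q of at least 5, 4689 in lists of equal size, 53638 from summits with 100 bp on each side, and 20465 with peaks up to 500 bp apart merged. With a −log10 q of at least 5, 33.9% of regions were held by 1 library, their median distance to a region of all libraries was 76.2 kb, 18.95% were within 10 kb of it and 12.7% had a neighbour of the same library within 10 kb. In lists of equal size these were 25.5%, 99.5 kb, 11.5% and 8.96%. With a limit of 2 kb in place of 10 kb, 19.6% were near a region of all libraries, and with 50 kb 60.2% were, while 62.3% then had a neighbour of the same library. Leaving out 1 library at a time, with the regions defined anew from 7 lists, gave 23996 to 33192 regions, 49.1% to 54.8% of all regions, 21.7 to 34.0 kb, 32.4% to 38.4% near and 26.4% to 46.2% with a neighbour. Without chromosomes 12, 15 and 16 there were 27390 regions, 51.7% of all regions, with a median distance of 30.8 kb. All 10 differences by orientation and switch length kept their sign. In number, Ia minus Ca went from 3232 to 2473.5 regions and PS minus FS from 3240 to 2567.

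No orientation or switch length test passed under any alternative (lowest adjusted p 0.476, exact permutation, over 140 values). With so few libraries and adjustment over 10 tests, a single differing measure could not have passed in these either. Ia minus Ca in median distance turned to 6.94 kb at a −log10 q of at least 5 and 4.61 kb from summits, and in the clustered share to 1.16 points with the 500 bp merging gap. Without 1 library, Ia minus Ca ran from -1131 to 5109 regions, -1.81 to 11.2 points of the list, -15.0 to 13.9 kb, 7.75 to 38.6 bp and -19.0 to 4.49 clustered points. PS minus FS ran from -843 to 5092 regions, -2.50 to 9.88 points, -33.4 to -14.1 kb, 20.6 to 53.2 bp and 12.8 to 31.8 clustered points. Without PS_Ia replicate 2, 5 of the 10 differences changed sign, and without PS_Ca replicate 2 2 did; without FS_Ca replicate 1, FS_Ia replicate 1, FS_Ia replicate 2 or PS_Ia replicate 1, 1 did each. The cause was not tested. The labels do not say that libraries of the same number belong together, and replicate 2 exceeded replicate 1 by 4345, 4158 and 15519 regions in 3 genotypes but not in PS_Ca. Permuted within the replicate block, PS minus FS in the clustered share of 23.6 points had p = 0.0556 (exact permutation, the smallest that 36 assignments allow; adjusted 0.556), so no test with this block can pass 0.05.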
